A study of Homo sapiens with 6 samples.

Results

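The neighbourhood of HMGA2 on chromosome 12 was taken as every gene of the deposited table that started between 55.8 and 76 Mb, apart from HMGA2 itself. It held 448 of the 61806 listed genes, along 20.2 Mb. The cells were MDA-MB-231, a human triple-negative breast cancer line. All of them carried an shRNA construct by title, which was shNC, a control hairpin, in 2 libraries, shHMGA2-1 in 2 and shHMGA2-2 in 2, the last pairs carrying different hairpins against HMGA2. The knockdown lines were each expanded from one clone according to the methods, which do not say so for shNC, so each contrast holds every other difference between those lines too. No drug, time course or further agent separated the groups. Library names call the controls wild type where the titles say shNC, and the libraries titled shHMGA2-1 have SH2 in their names. The titles were followed throughout. Nothing in the labels says that libraries of the same line came from separate cultures, and p-values therefore measure the spread between these samples, which may be technical.

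HMGA2 encodes a small architectural protein whose AT-hooks bind A and T rich DNA in the minor groove. It is high in embryonic tissue and in many tumours, and its mRNA is a classic target of let-7 miRNAs. The arm of chromosome 12 around it also carries CDK4 and MDM2, which are gained together with HMGA2 in some sarcomas, so that neighbours can rise or fall as a block when DNA copies change. Genes can also share a stretch of active chromatin, or overlap on opposite strands. The question put to the counts was whether the neighbours moved together along the chromosome when HMGA2 was lowered. DNA copies were not measured.

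HMGA2 (65824460 to 65966291, plus strand, GRCh38) gave 2126 and 2161 counts in shNC, against 858 and 989 under shHMGA2-1 and 435 and 482 under shHMGA2-2, with no overlap between lines. The libraries summed to 16461178 to 17167293 counts, of which mitochondrial genes took 6.74% to 7.86%. VIM, CD44, AXL and CAV1, which mark this mesenchymal line, reached 6632 to 38106 counts. ESR1, PGR and CDH1 stayed at 0 to 12 counts, whereas ERBB2 (1126 to 1909) and EPCAM (127 to 302) were low but not absent. Of markers of other cells, PTPRC, CD3E and CDH5 were at 0 to 4 counts and PECAM1 at 0 to 14. The RNA came from bulk cultures, in which fewer cells of a kind and less RNA per cell cannot be told apart.

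The starts of 4 protein-coding genes close to HMGA2 are shown first, because the counts of these close neighbours differed in how they moved. LEMD3 and MSRB3 lie before HMGA2 and LLPH and IRAK3 after it, all within 1 Mb. In shHMGA2-2, MSRB3 and IRAK3 fell more than 2-fold, LLPH fell by less, and LEMD3 did not pass the test. Each line below gives the 250 bases before a RefSeq transcript start (GRCh38.p14), 5′ to 3′ on the gene's own strand. Capitals mark unbroken runs of at least 6 letters that are each A or T, the kind of DNA that AT-hooks contact. Such a run reads as one on both strands. The windows are chr12:65169333-65169582 for LEMD3, chr12:65278433-65278682 for MSRB3, chr12:66188964-66189213 for IRAK3, all on the plus strand, and chr12:66130751-66131000 for LLPH on the minus strand. The LLPH window, as printed, ends at the base where LLPH-DT, a divergent noncoding gene, starts, and it lies wholly inside the span of LLPH-DT. The bases after the LLPH start used matched no LLPH transcript of GENCODE version 29, unlike those of LEMD3, MSRB3 and IRAK3. The MSRB3 and IRAK3 windows reach into the first bases of the gene spans listed in the table, and the LEMD3 window ends just before its span.
LEMD3: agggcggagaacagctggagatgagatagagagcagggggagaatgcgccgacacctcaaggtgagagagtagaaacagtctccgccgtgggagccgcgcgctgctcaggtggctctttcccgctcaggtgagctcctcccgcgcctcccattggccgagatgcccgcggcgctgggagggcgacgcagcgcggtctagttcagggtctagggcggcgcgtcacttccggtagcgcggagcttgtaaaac
MSRB3: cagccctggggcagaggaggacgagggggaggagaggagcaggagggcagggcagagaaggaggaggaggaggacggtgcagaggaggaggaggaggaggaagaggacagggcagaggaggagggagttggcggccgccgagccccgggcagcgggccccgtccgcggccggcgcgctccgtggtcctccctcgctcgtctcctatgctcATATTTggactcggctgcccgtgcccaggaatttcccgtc
LLPH: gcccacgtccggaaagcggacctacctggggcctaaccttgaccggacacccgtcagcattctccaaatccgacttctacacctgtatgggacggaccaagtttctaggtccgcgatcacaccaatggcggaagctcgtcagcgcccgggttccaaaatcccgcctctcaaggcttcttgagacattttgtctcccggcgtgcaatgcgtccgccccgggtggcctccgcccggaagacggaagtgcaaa
IRAK3: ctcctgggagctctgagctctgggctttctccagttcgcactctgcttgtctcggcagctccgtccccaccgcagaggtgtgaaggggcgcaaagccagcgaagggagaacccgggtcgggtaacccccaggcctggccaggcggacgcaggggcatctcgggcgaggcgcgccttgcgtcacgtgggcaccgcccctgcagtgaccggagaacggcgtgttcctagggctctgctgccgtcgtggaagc
One such run was present, ATATTT in the MSRB3 window. It lies before the RefSeq start used, but within the first bases of the gene span listed for MSRB3. RefSeq lists 2 promoters for MSRB3, and the one nearest the listed gene start is shown. The other 3 windows held none, their longest runs being 3 to 5 letters. A and T made up 34.8% of the LEMD3 window, 30% of that of MSRB3, 39.6% of that of LLPH and 31.6% of that of IRAK3. Over all 35116 RefSeq promoters of the same length the median was 42.0%, and 58.7% of them held a run. Of the 175 promoters listed for 137 neighbourhood genes, 59.4% held a run, and of the 127 promoters of 94 tested genes, 52.8%. These are descriptions of letters, and binding was not measured here.

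Of the 448 genes, 181 had 0 counts in all 6 libraries and 267 had at least 1 count in some library. edgeR's filter on low counts left 142 for testing, and 306 were not tested, of which none exceeded 18 counts in a library. The tested genes were 116 of the 157 protein-coding members, 9 antisense transcripts, 7 processed pseudogenes, 5 long intergenic noncoding RNAs and 5 of other kinds. The not tested genes included IFNG, IL22 and IL26, a cytokine cluster, and the stem cell marker LGR5. By FPKM, the reads per length and depth that allow genes to be set against each other, RPL41 (554.3 on average over the libraries) led, and the next 4 were ATP5F1B, a subunit of ATP synthase, PTGES3, a chaperone partner, RPS26, like RPL41 a ribosomal protein, and PA2G4, a growth regulator that binds ERBB3. RPS26 and RPL41 have near-identical copies elsewhere in the genome, and their counts depend on how such reads were assigned. All 5 changed by less than 2-fold in every contrast.

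A differentially expressed gene (DEG) passed 2 limits, a change of at least 2-fold and a p under 0.05 from edgeR's quasi-likelihood method after Benjamini-Hochberg adjustment over 16110 genes. Below, a gene is said to rise or fall when its adjusted p passed, and to be a DEG when both limits were passed. In shHMGA2-1 against shNC, 2 of the 142 tested neighbours were lower DEGs (1.41%) and 3 were higher DEGs (2.11%), where 3.59% of all tested genes were lower and 4.89% higher. With upper quartile scaling these were 2 and 5. The adjusted p alone passed for 46 neighbours (32.4%) against 33.4% of all tested genes. In shHMGA2-2 against shNC, 19 were lower DEGs (13.4%) and 11 higher (7.75%), against 9.65% and 11.7% of all tested genes. With upper quartile scaling these were 15 and 11. The adjusted p alone passed for 66 (46.5%) against 58.7%. On the rest of chromosome 12, with 716 tested genes, 11.2% were lower and 7.96% higher in shHMGA2-2, so the surplus of lower over higher calls was not limited to the neighbourhood. Both contrasts use the same shNC libraries.

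**Figure D1:**
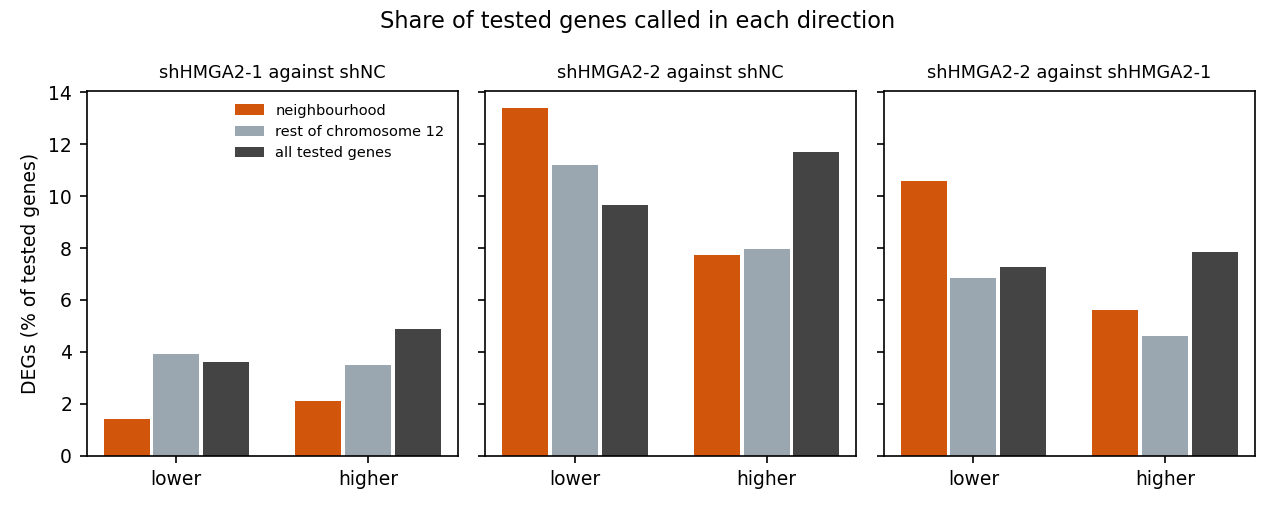
Bars give the percentage of tested genes that were DEGs, lower or higher, in each of 3 contrasts. Colours stand for the 142 genes around HMGA2, the 716 other tested genes of chromosome 12 and all 16110 tested genes, and in shHMGA2-2 the neighbourhood bar is the highest of the 3 for lower DEGs (13.4%) and the lowest for higher DEGs (7.75%).

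Directly between the knockdown lines, shHMGA2-2 had 15 lower (10.6%) and 8 higher DEGs (5.63%) than shHMGA2-1 among the neighbours, against 7.27% and 7.83% of all tested genes. The adjusted p alone passed for 63 (44.4%) against 50.2%. When the 4 shHMGA2 libraries were treated as one group, so that the gap between the lines counted as error, 1 neighbour was a DEG (0.704%, against 3.09% of all tested genes). That gene was ARHGEF25.

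The middle of the distribution moved little. The median log2 fold change of the 142 genes was 0.01 in shHMGA2-1, with a middle range (quartiles) of -0.27 to 0.23, and all tested genes had a median of 0.01. In shHMGA2-2 it was -0.13, with quartiles of -0.48 and 0.24, beside 0.03 over all tested genes and -0.05 over the rest of chromosome 12. In that line 87 of the 142 genes lay below 0 and 55 above. The share above 0 was 38.7%, against 52.0% of all tested genes and 45.9% on the rest of the chromosome. Upper quartile scaling shifted the median of all genes in shHMGA2-2 to 0.14 and that of the neighbours to -0.02, which left the gap between them at -0.16.

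As a share of all raw counts, the neighbourhood lay above shNC in shHMGA2-1 and below it in shHMGA2-2. The neighbourhood took 0.881% and 0.867% of all counts in shNC, 0.929% and 0.916% under shHMGA2-1, and 0.844% and 0.849% under shHMGA2-2. In these raw shares both shHMGA2-1 libraries lay above shNC and both shHMGA2-2 libraries below it, without overlap. Because the lines lay on either side, the mean difference over all 4, shHMGA2 minus shNC, was small, at 0.0102 percentage points (exact permutation test over libraries, two-sided p = 0.8, n = 4 and 2, smallest p possible 0.133). This test could not pass at this size and says nothing of either line alone. Single genes carry much of this sum. RPL41 alone had 9060 and 8820 counts in shNC, 12645 and 12113 under shHMGA2-1, and 10001 and 9625 under shHMGA2-2. Without the 5 members with most counts the difference turned to -0.0169 points (p = 0.8, same exact test). The shares use raw library totals, without the TMM scaling behind the fold changes. Its factors were 0.9587 and 0.9578 in shNC, 1.012 and 0.9924 under shHMGA2-1, and 1.03 and 1.053 under shHMGA2-2. Dividing by them would narrow the gap between shNC and shHMGA2-1, so the higher share of shHMGA2-1 depends on this choice.

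Along the chromosome the tested genes were cut into 7 consecutive blocks of 20, the last with 22. In shHMGA2-1 the block medians ran from -0.16 to 0.15 on the log2 scale. In shHMGA2-2 they ran from -0.46 to 0.08. The fifth block, from MIRLET7IHG at 3.22 Mb before the start of HMGA2 up to HMGA2-AS1 inside it, had the lowest median of that line (-0.46, 6 lower DEGs and 1 higher). The sixth, from ENSG00000256083 to YEATS4, came next with -0.34 and 2 lower DEGs. Of all tested genes, 9.65% were lower DEGs and 11.7% higher DEGs in this line. Summed CPM, counts scaled to library size by TMM, showed the same blocks at log2 ratios of -0.49 and -0.28 in shHMGA2-2 and at -0.07 and -0.11 in shHMGA2-1. The fourth block, whose median was near 0 (-0.06), had a summed ratio of -0.29. The first block, farthest before HMGA2, had the highest median in shHMGA2-1 (0.15). It holds RPL41, and its summed CPM ratio in that line was 0.229, while the other blocks lay between -0.105 and 0.014. In shHMGA2-2 the summed ratios of all blocks ran from -0.486 to -0.001.

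**Figure D2:**
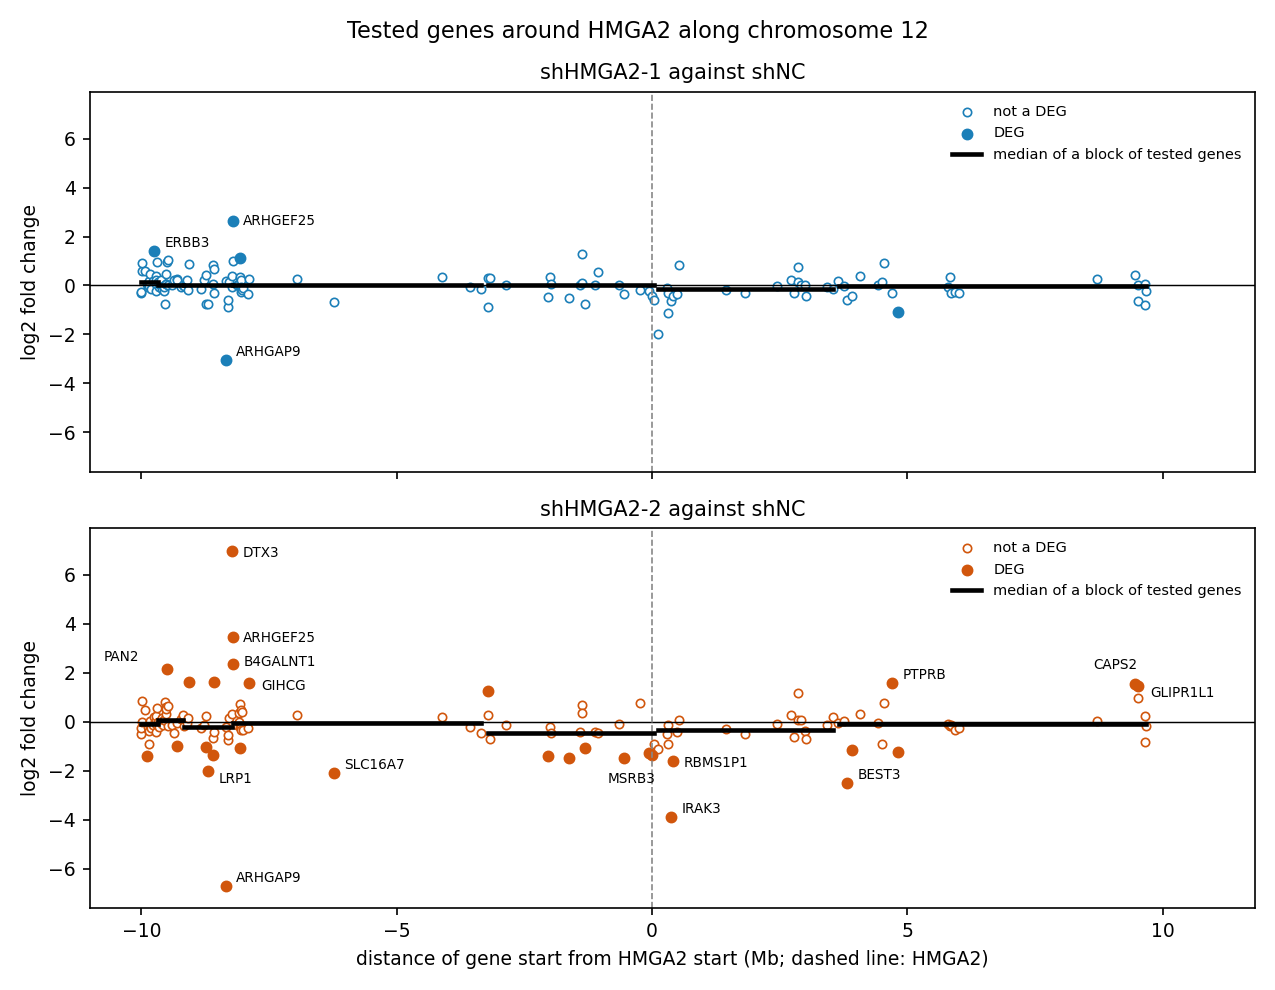
Each point is one of the 142 tested genes, placed by the distance of its start from the start of HMGA2 in Mb, with the fitted log2 fold change against shNC on the vertical axis. Filled points are DEGs, black lines are block medians, and symbols mark most of the larger changes. In shHMGA2-2 the medians nearest HMGA2 are -0.46 and -0.34, while higher and lower DEGs sit side by side about 8 to 10 Mb before it. The point of ARHGAP9 in shHMGA2-2 rests on 0 counts and is no measure of size.

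Log2 fold changes of adjacent genes were weakly alike, in the neighbourhood and elsewhere. Over the 141 pairs of adjacent tested genes, they correlated with Pearson's r = 0.15 in shHMGA2-1 and 0.28 in shHMGA2-2 (Spearman's rank correlation 0.12 and 0.20). All chromosomes gave 0.16 and 0.23 over 16069 pairs, and the rest of chromosome 12 gave 0.17 and 0.16 over 714. Signs matched in 54.6% and 57.4% of the neighbourhood pairs, against 56.5% and 61.5% genome-wide. Without the pairs whose spans overlap, r was 0.21 and 0.30 over 101 pairs, beside 0.14 and 0.19 over 12258 pairs of all chromosomes and 0.14 and 0.12 over 515 of the rest of chromosome 12. Pearson's r of the neighbourhood was above both references except in shHMGA2-1 with all pairs, where it was below both. Spearman's rank correlation in shHMGA2-2 was 0.198 and, without overlapping pairs, 0.171. These values lay below those of all chromosomes (0.291 and 0.265) and above those of the rest of chromosome 12 (0.183 and 0.149). For shHMGA2-1 the rank correlations stood to the references as r did. None of these differences was tested. The values of a pair come from the same libraries and reads of overlapping genes may be mixed, so these correlations across genes are descriptions only.

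The genes closest to HMGA2, by the distance between the nearest ends of the gene spans, had lower values in shHMGA2-2 than those farther away. The 15 tested genes that overlapped HMGA2 or lay within 1 Mb, out of 45 listed there, had a median log2 fold change of -0.92, with values from -3.91 to 0.78, 13 of them below 0, 5 lower DEGs and no higher DEG. At 1 to 5 Mb, 38 tested genes had a median of -0.18 with 6 lower and 2 higher DEGs, and beyond 5 Mb, 89 had -0.09 with 8 lower and 9 higher. Of all tested genes, 9.65% were lower and 11.7% higher DEGs in shHMGA2-2, and 52.0% lay above 0. In shHMGA2-1 the same groups had medians of -0.34, 0.01 and 0.04. There no gene within 1 Mb was a DEG, against 3.59% lower and 4.89% higher over all tested genes. The -0.92 leans on genes that overlap HMGA2. Without those 4, the 11 others had -0.48 with 3 lower DEGs. Among these 3 are IRAK3 and RBMS1P1, which lies inside the span of IRAK3. The -0.92 also became -0.58 when shNC replicate 1 was left out. These medians were not tested.

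**Figure D3:**
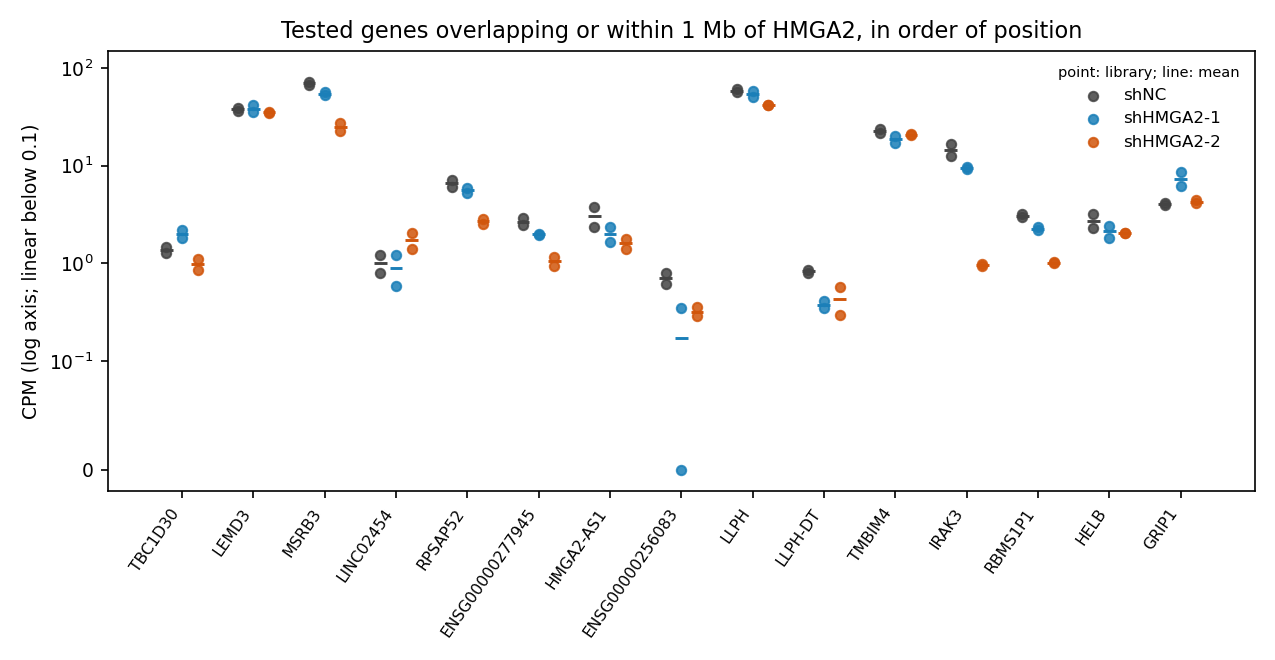
CPM of each library (points) and mean of 2 libraries (short lines) are shown on a log axis for the 15 tested genes that overlap HMGA2 or lie within 1 Mb, from left to right along the chromosome. In shHMGA2-2, IRAK3 is about 15-fold below shNC, MSRB3 about 2.80-fold below, and the points of LEMD3 and TMBIM4, next to them on the map, sit close to those of shNC.

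Starting before HMGA2, LEMD3 (65169583 to 65248355, plus strand), an inner nuclear membrane protein that restrains SMAD signalling, had 591 and 630 counts in shNC, 613 and 701 under shHMGA2-1, and 603 and 601 under shHMGA2-2. The counts of shNC overlapped those of both knockdown lines. Its log2 fold change was 0.03 and -0.10, neither passing the test. MSRB3 (65278643 to 65491430, plus strand), a methionine sulfoxide reductase that repairs oxidised proteins, is the next protein-coding gene toward HMGA2. It had 1161 and 1096 counts in shNC, 919 and 958 under shHMGA2-1, and 459 and 393 under shHMGA2-2, 3 levels without overlap. In CPM this was 69.4 ± 2.80 (SD, n = 2), 54.7 ± 2.46 (SD, n = 2) and 24.8 ± 3.24 (SD, n = 2). It fell in both, by 0.34 on the log2 scale in shHMGA2-1 (standard error 0.09, edgeR adjusted p = 0.00557) and by 1.48 in shHMGA2-2 (standard error 0.10, edgeR adjusted p = 3.86e-12), the latter past 2-fold.

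LINC02454, a noncoding gene between MSRB3 and HMGA2, had 13 and 20 counts in shNC, 21 and 10 under shHMGA2-1, and 24 and 36 under shHMGA2-2. The first 2 lines overlapped, and both shHMGA2-2 libraries were above the other 4. Its log2 fold change in shHMGA2-2 was 0.78 (standard error 0.43, edgeR adjusted p = 0.125), the highest among the genes within 1 Mb. TBC1D30, a Rab GTPase activator whose end lies 0.943 Mb before HMGA2, had 21 and 24 counts in shNC, 38 and 31 under shHMGA2-1, and 19 and 15 under shHMGA2-2. Its knockdown lines lay on either side of shNC, and only their direct comparison passed the test (log2 -1.02, edgeR adjusted p = 0.026). That call was lost with DESeq2 (adjusted p = 0.195), and without shHMGA2-1 replicate 1 or either shHMGA2-2 library (edgeR adjusted p = 0.0533 to 0.158).

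After HMGA2, LLPH (66116555 to 66130750, minus strand), a nucleolar protein, had 980 and 928 counts in shNC, 884 and 975 under shHMGA2-1, and 705 and 727 under shHMGA2-2. The last pair lay below the other 4 libraries. It fell by 0.49 on the log2 scale in shHMGA2-2 (standard error 0.09, edgeR adjusted p = 5.33e-05), under 2-fold. LLPH-DT, which runs the other way from the same start, had 14 and 13 counts in shNC, 6 and 7 under shHMGA2-1, and 5 and 10 under shHMGA2-2. All 4 knockdown libraries were below shNC at this low depth, and no test was passed. TMBIM4, a Golgi membrane protein related to Bax inhibitors, had 351 and 388, 295 and 341, and 351 and 364 counts. Both shHMGA2-1 libraries were below the other 4, while counts of shNC and shHMGA2-2 overlapped. Its log2 fold changes were -0.29 (edgeR adjusted p = 0.0586) and -0.13 (edgeR adjusted p = 0.362).

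IRAK3 (66189195 to 66254622, plus strand) encodes IRAK-M, a kinase-family protein that damps Toll-like receptor and interleukin receptor signalling. Its counts were 270 and 203 in shNC, 169 and 157 under shHMGA2-1, and 16 and 17 under shHMGA2-2. In CPM these were 14.6 ± 2.91 (SD, n = 2), 9.50 ± 0.347 (SD, n = 2) and 0.960 ± 0.0208 (SD, n = 2). The lines were ordered without overlap, and shHMGA2-2 was far below the others. The log2 fold change was -0.62 in shHMGA2-1 (standard error 0.16, edgeR adjusted p = 0.00387) and -3.91 in shHMGA2-2 (standard error 0.23, edgeR adjusted p = 3.74e-13), a 15-fold decrease. RBMS1P1, a processed pseudogene of an RNA-binding protein, lies inside the span of IRAK3 on the opposite strand. It had 52 and 48, 41 and 37, and 17 and 18 counts, in the same order of lines, and was a DEG in shHMGA2-2 (log2 -1.59, standard error 0.33, edgeR adjusted p = 0.000193). The strand setting of the counting is not given in the sources used here, so reads of such pairs cannot be told apart.

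The 2 tested genes after IRAK3 were not lower DEGs. HELB, a DNA helicase, had 52 and 37 counts in shNC, 32 and 41 under shHMGA2-1, and 35 and 36 under shHMGA2-2. Its shHMGA2-1 libraries overlapped the other lines, and its shHMGA2-2 libraries lay just below shNC. Its log2 fold changes were -0.36 and -0.41 (edgeR adjusted p = 0.39 and 0.26). GRIP1, a scaffold of glutamate receptors, had 68 and 65, 149 and 104, and 75 and 72. Only shHMGA2-1 stood above the others, by 0.85 on the log2 scale (standard error 0.21, edgeR adjusted p = 0.00241), and shHMGA2-2 was at 0.06.

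The 4 tested genes whose spans overlap HMGA2 were noncoding, and all had lower fitted values than shNC in both knockdown lines. RPSAP52 (65758020 to 65826997, minus strand), a pseudogene transcript that reaches over the start of HMGA2, had 99 and 115 counts in shNC, 103 and 90 under shHMGA2-1, and 43 and 50 under shHMGA2-2. The counts of the first 2 lines overlapped and the third was below both. It was a DEG in shHMGA2-2 (log2 -1.28, standard error 0.21, edgeR adjusted p = 1.56e-05). ENSG00000277945, on the strand of HMGA2, had 40 and 47, 34 and 34, and 16 and 20 counts and was a DEG there too (log2 -1.35, standard error 0.34, edgeR adjusted p = 0.00145). HMGA2-AS1 had 61 and 38, 29 and 40, and 24 and 31 counts. It fell in shHMGA2-2 by 0.93 (standard error 0.33, edgeR adjusted p = 0.0184), and its shHMGA2-1 libraries overlapped shNC. ENSG00000256083 had 10 and 13, 6 and 0, and 6 and 5 counts and passed no test. HMGA2 itself had 435 to 2161 counts, and whether reads counted on these 4 genes belong to it was not tested.

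Runs of adjacent DEGs in the same direction occurred 5 times in shHMGA2-2, where there were 30 DEGs, and 0 times in shHMGA2-1, where there were 5. In shHMGA2-2 the runs held 12 of the 142 tested neighbours (8.45%), against 7.68% on the rest of chromosome 12 and 8.66% over all chromosomes, so that their share was near the background. In shHMGA2-1 the references were 1.68% and 2.11%. Besides RPSAP52 with ENSG00000277945, and IRAK3 with RBMS1P1, they were STAT6 with LRP1 and NXPH4, DTX3 with ARHGEF25 and B4GALNT1, and BEST3 with RAB3IP. The first of these triplets, 8.6 to 8.7 Mb before HMGA2, covers 131.0 kb and was lower. The second covers 28.6 kb, lies within 0.5 Mb of the first, and was higher.

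In the lower triplet, LRP1 (57128483 to 57213361, plus strand), a large endocytic receptor for proteases and lipoproteins, had 1708 and 1762 counts in shNC, 1160 and 997 under shHMGA2-1, and 459 and 461 under shHMGA2-2. Its CPM was 107 ± 2.39 (SD, n = 2), 62.8 ± 5.74 (SD, n = 2) and 26.8 ± 0.487 (SD, n = 2), stepping down without overlap. It fell in both, with log2 fold changes of -0.77 (standard error 0.08, edgeR adjusted p = 1.03e-07) and -1.995 (standard error 0.09, edgeR adjusted p = 2.21e-15). STAT6, the transcription factor of interleukin signalling through the IL4 receptor, overlaps the start of LRP1 on the opposite strand. It had 1998 and 2017, 1325 and 1216, and 1038 and 1064 counts, again 3 separate levels, with log2 fold changes of -0.74 (edgeR adjusted p = 3.68e-08) and -1.01 (edgeR adjusted p = 4.34e-11). With upper quartile scaling STAT6 was at -0.90 in shHMGA2-2 and no longer past 2-fold. NXPH4, a neurexophilin, had 30 and 50, 73 and 78, and 16 and 17 counts. Here shHMGA2-1 was above shNC and shHMGA2-2 below it, with log2 fold changes of 0.84 (edgeR adjusted p = 0.0205) and -1.35 (edgeR adjusted p = 0.00176). Without shNC replicate 2 the latter was -0.94 (edgeR adjusted p = 0.0659).

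In the higher triplet, DTX3 (57604622 to 57609804, plus strand), a Deltex family ubiquitin ligase, went from 2 and 2 counts in shNC and 3 and 1 in shHMGA2-1 to 258 and 308 in shHMGA2-2. It was nearly silent in 4 libraries and plainly expressed in the other 2. The ratio of summed counts, scaled to depth, was 134 with a 95% exact interval of 52.0 to 493, which covers counting error only (edgeR adjusted p = 6.70e-15). ARHGEF25, which starts just after DTX3 ends on the same strand, had 3 and 4 counts in shNC, 24 and 23 under shHMGA2-1, and 40 and 43 under shHMGA2-2. All 4 knockdown libraries were above shNC, by ratios of 6.36 (2.86 to 16.7) and 11.2 (5.20 to 28.7), with edgeR adjusted p = 0.000431 and 1.70e-06. With all 4 as one group its log2 fold change was 3.09 (standard error 0.49, edgeR adjusted p = 0.0231). The call of the single group was lost with a replicate block (edgeR adjusted p = 0.0821), without either shNC library (edgeR adjusted p = 0.212 and 0.233) and without either shHMGA2-2 library (edgeR adjusted p = 0.0583 and 0.0603). B4GALNT1, the synthase of gangliosides GM2 and GD2, had 79 and 100, 181 and 195, and 465 and 516 counts. The lines rose in 3 steps, with log2 fold changes of 0.99 (standard error 0.16, edgeR adjusted p = 2.55e-05), just under 2-fold, and 2.37 (standard error 0.14, edgeR adjusted p = 6e-13).

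Other large changes had no adjacent DEG in the same direction, though some neighbours moved by less than 2-fold. CNPY2, which ends just before PAN2 starts, rose by 0.452 and 0.519 on the log2 scale (edgeR adjusted p = 0.0113 and 0.00183). PAN2 (56316223 to 56334053, minus strand), the catalytic subunit of a poly(A) nuclease, had 93 and 124 counts in shNC, 263 and 187 under shHMGA2-1, and 469 and 538 under shHMGA2-2, in rising order without overlap. Its log2 fold change was 0.97 (edgeR adjusted p = 7.80e-05) and 2.13 (standard error 0.16, edgeR adjusted p = 2.42e-11). SLC16A7 (59596029 to 59789855, plus strand), the monocarboxylate transporter MCT2, had 1275 and 1292, 702 and 994, and 305 and 332 counts. It stepped down without overlap, by log2 fold changes of -0.67 (edgeR adjusted p = 5.27e-05) and -2.09 (standard error 0.13, edgeR adjusted p = 4.92e-13). ARHGAP9 (57472264 to 57488814, minus strand) had 12 and 13 counts in shNC, 2 and 1 under shHMGA2-1 and 0 and 0 under shHMGA2-2. The shHMGA2-1 ratio was 0.114 (95% exact interval 0.022 to 0.372, edgeR adjusted p = 0.0052), and shHMGA2-2 was at least 4.41-fold lower, with each count of 0 set to the 3 counts per library that it allows for.

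**Figure D4:**
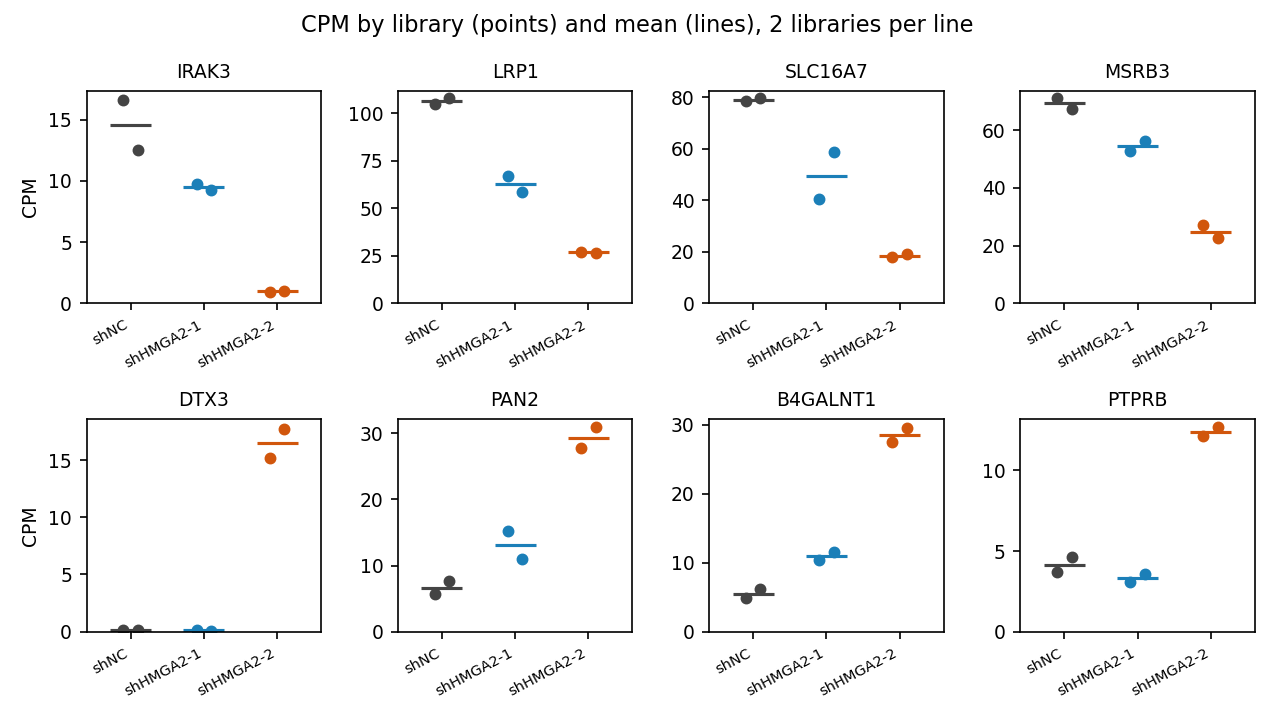
CPM by library (points) and line means (bars) are shown from 0 for 4 genes that were lower and 4 that were higher in shHMGA2-2, each panel with its own vertical scale. IRAK3, LRP1, SLC16A7 and MSRB3 step down from shNC over shHMGA2-1 to shHMGA2-2, PAN2 and B4GALNT1 step up, and DTX3 and PTPRB are raised in shHMGA2-2 alone.

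Adjacent genes also went opposite ways. PTPRB (70515870 to 70637440) and PTPRR (70638073 to 70920738), receptor-type tyrosine phosphatases that lie end to end on the minus strand, differed in sign in shHMGA2-2. PTPRB had 60 and 75 counts in shNC, 53 and 61 under shHMGA2-1, and 204 and 221 under shHMGA2-2, where it rose by 1.57 on the log2 scale (standard error 0.18, edgeR adjusted p = 5.28e-08). PTPRR had 84 and 90, 32 and 54, and 37 and 41 counts, so that all 4 knockdown libraries were below shNC. Its log2 fold changes were -1.09 (standard error 0.25, edgeR adjusted p = 0.00167) and -1.24 (standard error 0.26, edgeR adjusted p = 0.000236), and the first was -0.75 without shHMGA2-1 replicate 1. Nearer to HMGA2, 3.68 Mb after it, BEST3, a bestrophin chloride channel, had 67 and 62, 46 and 44, and 10 and 14 counts, with a log2 fold change of -2.50 in shHMGA2-2 (standard error 0.33, edgeR adjusted p = 5.93e-07). Its neighbour RAB3IP, an exchange factor for Rab GTPases in ciliary transport, had 688 and 651, 492 and 561, and 298 and 333 counts. Both genes stepped down in order without overlap. RAB3IP fell by 0.42 in shHMGA2-1 (edgeR adjusted p = 0.00239) and by 1.17 in shHMGA2-2 (edgeR adjusted p = 1.70e-09).

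A few genes were higher in shHMGA2-1. ERBB3, the kinase-impaired partner receptor of ERBB2, had 44 and 34 counts in shNC, 92 and 127 under shHMGA2-1, and 43 and 52 under shHMGA2-2. The shHMGA2-1 libraries were above the other 4, with a log2 fold change of 1.41 (standard error 0.24, edgeR adjusted p = 7.36e-05), while shHMGA2-2 was at 0.20. CYP27B1, the hydroxylase that makes active vitamin D, had 15 and 14, 44 and 23, and 30 and 21 counts. It passed both limits in shHMGA2-1 (log2 1.12, edgeR adjusted p = 0.0396), but not with DESeq2 (adjusted p = 0.223), nor with a replicate block (edgeR adjusted p = 0.0501), nor without any one library other than shHMGA2-1 replicate 2 (edgeR adjusted p = 0.0577 to 0.43, the last without shHMGA2-1 replicate 1, at log2 0.60). MMP19, a matrix metalloproteinase 9.98 Mb before HMGA2, had 34 and 52, 100 and 71, and 38 and 51 counts. It rose in shHMGA2-1 by 0.91 (edgeR adjusted p = 0.00877) and was at -0.03 in shHMGA2-2.

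By function, the genes that are gained together with HMGA2 in tumours were taken first. Of 24 listed, 21 were tested. In shHMGA2-2 the 2 DEGs were BEST3 and RAB3IP, both lower, where 9.65% of all tested genes were lower and 11.7% higher. By adjusted p, 8 fell and 0 rose in that line, and the median was -0.14. In shHMGA2-1 there were 0 DEGs, 3 fell and 1 rose, and the median was -0.07. CDK4, the G1 kinase, had 2045 and 2012 counts in shNC, 2117 and 1969 under shHMGA2-1, and 1778 and 1927 under shHMGA2-2. It fell by 0.21 in shHMGA2-2 (edgeR adjusted p = 0.0146). MDM2, the ubiquitin ligase of p53, had 2227 and 2216, 2288 and 2461, and 1815 and 1813 counts and fell by 0.37 there (edgeR adjusted p = 0.000114). Neither passed the test in shHMGA2-1, with log2 fold changes of -0.07 and 0.02. DDIT3, the stress factor CHOP, fell in both (log2 -0.89 and -0.73). All 8 cell cycle and replication genes were tested, with 0 DEGs in either line and medians of -0.04 and -0.12.

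Among 10 genes of interferon, cytokine and innate signalling, 6 were tested. In shHMGA2-2, STAT6 and IRAK3 were lower DEGs, 3 fell and 1 rose by adjusted p, and the median was -0.19. The one that rose was TBK1, a kinase upstream of interferon, at 0.34 (edgeR adjusted p = 0.00143). In shHMGA2-1 there were 0 DEGs, 2 fell, and the median was -0.01. Of 14 growth factor, Wnt and Hedgehog genes, 9 were tested, with medians of 0.06 and -0.47. ERBB3 was the one DEG in shHMGA2-1. In shHMGA2-2 the DEGs were LRP1 and RASSF3, a Ras-association tumour suppressor with 971 and 984 counts in shNC, 549 and 662 under shHMGA2-1, and 521 and 467 under shHMGA2-2. RASSF3 was lower in all 4 knockdown libraries, by 0.77 and 1.06 on the log2 scale (edgeR adjusted p = 2.29e-06 and 4.80e-09), the latter 0.95 with upper quartile scaling and 0.97 without shHMGA2-2 replicate 2.

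Of 8 phosphatase, protease and peptidase genes, 6 were tested, with medians of -0.37 and -0.71. PTPRR was the DEG in shHMGA2-1, and PTPRR and PTPRB were those in shHMGA2-2. GLIPR1, a secreted cysteine-rich protein, fell by 0.81 and 0.82 in the lines (edgeR adjusted p = 4.68e-06 and 1.18e-06). PPM1H, a phosphatase of Rab proteins, had 108 and 99, 143 and 127, and 72 and 62 counts, with shHMGA2-1 above shNC and shHMGA2-2 below it. It fell by 0.71 in shHMGA2-2 (edgeR adjusted p = 0.0033). The 10 ribosome and translation genes gave 0 DEGs and medians of 0.09 and -0.21. By adjusted p, 4 rose and 1 fell in shHMGA2-1 and 3 fell in shHMGA2-2. Of 12 mitochondrial and metabolic genes, 9 were tested, with medians of 0.02 and 0.08. The DEGs were CYP27B1 in shHMGA2-1, and in shHMGA2-2 SLC16A7 and HSD17B6, a steroid dehydrogenase that was higher with only 9 to 43 counts per library. The HSD17B6 call was lost with DESeq2 (adjusted p = 0.063) and without shHMGA2-2 replicate 2 (edgeR adjusted p = 0.202). Of all tested genes, 3.59% were lower and 4.89% higher DEGs in shHMGA2-1, and 9.65% and 11.7% in shHMGA2-2. Without reaching 2-fold, a further 14.1% fell and 10.9% rose in shHMGA2-1, and 19.6% and 17.9% in shHMGA2-2. None of these lists was tested as a set.

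The neighbourhood also holds let-7i, a miRNA of the family that targets HMGA2 mRNA. Its mature strand (RefSeq, chr12:62603691-62603712, plus strand, seed of bases 2 to 8 in capitals) is shown because the gene of its precursor lies in the window.
let-7i-5p: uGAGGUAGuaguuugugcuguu
Libraries made by mRNA capture do not measure mature miRNAs, and MIRLET7I and MIR26A2 had 0 counts in all 6. The list of miRNA loci had 4 members, of which 0 passed the filter. The host gene MIRLET7IHG (62602752 to 62622213, plus strand) had 32 and 35 counts in shNC, 44 and 44 under shHMGA2-1, and 90 and 77 under shHMGA2-2, in rising order without overlap. It was a DEG in shHMGA2-2 (log2 1.24, standard error 0.25, edgeR adjusted p = 0.000171) and did not pass in shHMGA2-1 (0.31).

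The remaining DEGs of shHMGA2-2 were spread over the window. Lower ones were DGKA, a diacylglycerol kinase, RBMS2, an RNA-binding protein, MARCHF9, a membrane ubiquitin ligase, RXYLT1, a glycosyltransferase of dystroglycan, and KICS2, a subunit of an amino acid sensing complex, with log2 fold changes from -1.50 to -1.01. With upper quartile scaling RBMS2 (-0.89) and MARCHF9 (-0.96) were no longer past 2-fold, and RBMS2 was at -0.95 without shNC replicate 1 and -0.97 without shHMGA2-2 replicate 2. Higher ones were STAC3 and GLIPR1L1, both under 30 counts in every library, CAPS2, which overlaps GLIPR1L1 on the opposite strand, and GIHCG, a long noncoding RNA, with values from 1.44 to 1.62. The calls of STAC3 and GLIPR1L1 were lost with DESeq2 (adjusted p = 0.187 and 0.131). They were lost too without any one of the shNC and shHMGA2-2 libraries for STAC3 (edgeR adjusted p = 0.0536 to 0.115), and without shNC replicate 2 or shHMGA2-2 replicate 1 for GLIPR1L1 (edgeR adjusted p = 0.0573 and 0.0633). A further 36 genes passed the adjusted p without reaching 2-fold in shHMGA2-2, 29 of them lower (20.4%, against 19.6% of all tested genes) and 7 higher (4.93%, against 17.9%). In shHMGA2-1 these were 41, with 21 lower (14.8%, against 14.1%) and 20 higher (14.1%, against 10.9%).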

How the data were processed

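RNA sequencing of 6 libraries was analysed, grouped by sample title. Members and gene lists were chosen with earlier results of these data known. The deposited table holds whole-number read counts per gene, which the authors did not normalize, and FPKM values that the authors made from counts, exonic size and library total (100% recomputed within 0.0051). The submitters' processing notes name HISAT2 2.2.1, HTSeq 0.6.1 and GRCh38 p13; annotation and strand setting are not given in the sources used here. Of the 448 genes, 429 were in GENCODE version 29, 312 with the same coordinates. Sample columns not used numbered 0.

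Counts were tested with edgeR 4.0.16 in R 4.3.3: TMM scaling (factors 0.958 to 1.05), filterByExpr, a quasi-likelihood model with 3 groups (common biological coefficient of variation 0.0583; 0.291 with the knockdown lines as one group), and Benjamini-Hochberg adjustment over 16110 genes. The scripts were tested on simulated data. Named genes were the tested members starting within 1 Mb of HMGA2, those with the largest changes per contrast, the 5 with highest FPKM, and listed genes that were DEGs, 39 in all. Other members in the text were picked with their values in view. The alternatives comprised DESeq2 1.42.0, upper quartile scaling, no filter beyond 1 count, a replicate block, and leaving out each library with the same genes kept, where a lone library is assumed to vary like the other groups. Intervals and the limit of 3 counts for a count of 0 cover counting error only, as no molecular identifiers are mentioned. Promoter and miRNA sequences were matched by symbol to RefSeq tables of GRCh38.p14.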

Additional observations from a re-analysis of the deposited data

Results flagged for a closer look

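For 15 of the named genes the knockdown lines themselves differed, by edgeR's quasi-likelihood test of shHMGA2-2 against shHMGA2-1 with both limits passed, which uses no shNC library as reference. On the log2 scale shHMGA2-2 was higher for DTX3 (7.05, resting on 4 counts in shHMGA2-1), GLIPR1L1 (2.06), PTPRB (1.89), B4GALNT1 (1.38) and PAN2 (1.16). It was lower for IRAK3 (-3.30), NXPH4 (-2.19), BEST3 (-1.90), SLC16A7 (-1.42), LRP1 (-1.23), ERBB3 (-1.21), RBMS1P1 (-1.15), MSRB3 (-1.14), RPSAP52 (-1.05) and PPM1H (-1.01). The PPM1H difference was under 2-fold with upper quartile scaling (-0.96) and without shHMGA2-1 replicate 1 (-0.94) or shHMGA2-2 replicate 2 (-0.89), and that of RPSAP52 without shHMGA2-1 replicate 1 or shHMGA2-2 replicate 1 (-0.97 each). ERBB3 (-0.94) and PAN2 (0.95) were under 2-fold without shHMGA2-1 replicate 2, and RBMS1P1 did not pass with DESeq2 (adjusted p = 0.0674). HMGA2 counts were lower in shHMGA2-2 (435 and 482) than in shHMGA2-1 (858 and 989), and the methods describe each knockdown line as a single clone, so hairpin, clone and HMGA2 level cannot be told apart.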

How the results depend on the processing

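Each line had 2 libraries, which limits the precision of every value. Of 1209 values of the 39 named genes under alternatives, 1164 kept their call, 15 passed newly, 30 were lost and 0 reversed. These values include contrasts in which a gene was no DEG, and the removal of libraries outside the contrast. The share that kept its call is therefore no measure of how stable the DEGs are. DESeq2 called 3 neighbours in shHMGA2-1 in place of 5 and 6 in place of 1 with all knockdown libraries as one group. Leaving out libraries gave 4 to 9 DEGs in shHMGA2-1 (8 without shNC replicate 2, 9 without shHMGA2-1 replicate 2) and 0 to 3 in the single group (0 without either shNC or either shHMGA2-2 library, 3 without shHMGA2-1 replicate 2). The median log2 fold change of shHMGA2-1, 0.014, became 0.078 with upper quartile scaling and -0.031 to 0.034 with libraries left out. That of shHMGA2-2, -0.132, became -0.148 with DESeq2, -0.017 with upper quartile scaling, 0.0 without the filter, over 267 genes that include 125 of low counts (-0.157 on the same 142 genes, with all genes at 0.003), and -0.15 to -0.118 with libraries left out; with ARHGAP9 at its bound it was -0.132. Between the knockdown lines, -0.149 became -0.099 with upper quartile scaling, -0.117 without the filter and -0.153 to -0.122 with libraries left out. The difference in the share of counts reversed to -0.0169 percentage points without the 5 highest members, and ranged from -0.00465 to 0.0238 with libraries left out, reversing without either shHMGA2-1 library (-0.00465 and -0.000192). Same-numbered libraries did not deviate together (correlations of -0.022, 0.00135 and -0.144). With 2 libraries per line, this check cannot exclude a shared batch. With a replicate block, DEGs numbered 4 in shHMGA2-1, 30 in shHMGA2-2, 21 between the lines and 0 in the single group. The shHMGA2-2 median was then -0.124, and CYP27B1 was lost (adjusted p = 0.0501, edgeR). A crossed pairing of the knockdown lines, chosen after seeing the data like the removal of overlapping pairs, gave 23. The causes of these moves were not tested.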
